A study of Mus musculus with 6 samples.

Results

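The genes described here encode the signals by which bone-forming and stromal cells direct the making of osteoclasts, the multinucleated cells that resorb bone. They are *Rankl* (*Tnfsf11*), *Opg* (*Tnfrsf11b*), *M-CSF* (*Csf1*), *Il34*, the receptors *Rank* (*Tnfrsf11a*) and *Csf1r*, and the downstream factors *Traf6*, *Tyrobp*, *Fcer1g* and *Nfatc1*, which are 10 of the 55401 Ensembl genes counted. They were chosen by name for their place in this pathway, and all 10 were matched by symbol in GENCODE M21 and passed the expression filter. The libraries came from whole tibias of 3 Atrx-cKO mice (genotype *Osterix-Cre; Atrxf/y*) and 3 control mice (genotype *Atrxf/y*), all male and 8 weeks old by the study's account, with 1 library of polyadenylated RNA per tibia sample. Both groups carried the floxed *Atrx* allele and, per the study's methods, received doxycycline until 3 weeks of age, which held the Tet-off Cre inactive. *Osterix-Cre* is active in preosteoblasts and their descendants, and the blood-lineage cells that carry *Rank* and *Csf1r* are not its target. The transgene was in the 3 Atrx-cKO mice alone, and its own effect and that of *Atrx* loss cannot be told apart here.

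As background, RANKL is a membrane-bound or shed cytokine of the TNF family made by osteoblast-lineage cells, osteocytes, marrow stromal cells and lymphocytes. It binds RANK on monocyte-lineage precursors, and OPG, a secreted decoy receptor, takes RANKL away from RANK. M-CSF and IL-34 both bind the tyrosine kinase receptor CSF1R and keep these precursors alive. RANK recruits the adaptor TRAF6, while the adaptors DAP12 (*Tyrobp*) and FcRγ (*Fcer1g*) pass on a costimulatory calcium signal, and both arms meet at NFATc1, the transcription factor that turns on the resorption genes. In whole-bone RNA, fewer cells of a type and less RNA per cell cannot be told apart.

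Between 50977777 and 70571655 reads were counted on genes in each library. A gene at 0 counts could still hold up to 3, or 0.0450 to 0.0630 normalized CPM by library, which allows for counting error alone. *Rankl*, with the lowest mean CPM of the 10 in each group, had 724, 440 and 604 counts in Atrx-cKO and 612, 747 and 674 in control, far above that floor. Values below are counts scaled to library size and by TMM (normalized CPM), a scale on which most genes are assumed to be alike between libraries. *Atrx* itself was at 153, 166 and 171 CPM in Atrx-cKO and 174, 166 and 165 CPM in control, a log2 fold change of -0.047 (standard error 0.080), so the count over the whole gene in the whole tibia does not check the genotypes. Markers of bone cells were present in every library. The 8 osteoblast markers summed to between 108816 and 185200 CPM, with *Col1a1* the most abundant, and 0 of the osteoblast, osteocyte or osteoclast markers was at 0 counts across the libraries. Control replicate 3 stood apart, with 11697 CPM on 10 skeletal muscle genes against 794 and 860 CPM in the other controls and 2367, 1211 and 696 CPM in Atrx-cKO. Fits without each library in turn were run for all genes.

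The quasi-likelihood test of edgeR, adjusted by Benjamini-Hochberg over 20636 genes, called 3 genes at an adjusted p under 0.05, or 0.0145% of those tested, and 0 of the 10 genes was among them. The lowest adjusted p of the 10 was 0.992 in edgeR and 0.761 (*Nfatc1*) in DESeq2. At an unadjusted p under 0.05, where 3.64% of all genes fell in edgeR and 4.13% in DESeq2, *Nfatc1* and *Csf1r* were counted by both tools, each with the lower mean in Atrx-cKO. They were also the only 2 of the 10 whose Atrx-cKO and control libraries did not overlap, against 8.31% of all genes in either direction and 4.01% on the lower side. The median log2 fold change of the 10 was -0.0048, beside 0.0050 over all tested genes, and 4 of the 10 were above 0 and 6 below. The plot of each gene by library shows the raw material of these comparisons.

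**Figure D1:**
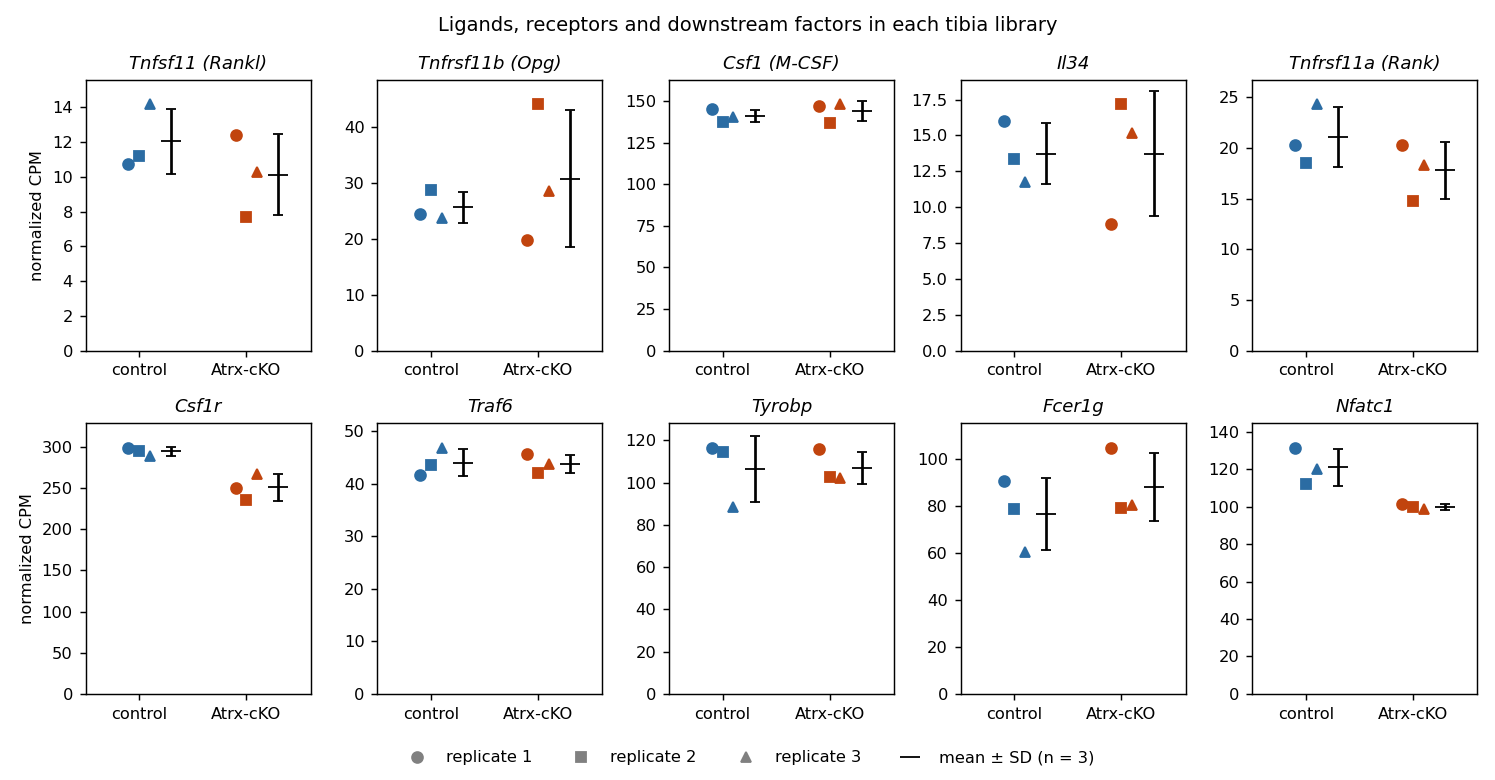
Normalized CPM of the 10 genes (vertical axes, each from 0) in 3 control and 3 Atrx-cKO tibia libraries, with a marker shape for each replicate number and a bar for the mean ± SD. The groups overlap for 8 genes, while the 3 Atrx-cKO values of *Csf1r* and *Nfatc1* lie below all control values.

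*Rankl* (ENSMUSG00000022015, minus strand of chromosome 14, 78277445 to 78308043 on GRCm38) is the ligand at the head of the pathway. It was at 12.4, 7.71 and 10.3 CPM in Atrx-cKO replicates 1, 2 and 3 and at 10.7, 11.2 and 14.2 CPM in control replicates 1, 2 and 3. Atrx-cKO replicate 2 was the lowest and control replicate 3 the highest, and the other 4 libraries were interleaved. The means were 10.1 ± 2.34 CPM (SD, n = 3) and 12.0 ± 1.86 CPM (SD, n = 3), a log2 fold change of -0.25 with a 95% interval from -0.71 to 0.21 (adjusted p = 0.992). The interval covers levels in Atrx-cKO from 0.613 to 1.15 times those of control. The log2 fold change ran from -0.42 without Atrx-cKO replicate 1 to -0.096 without Atrx-cKO replicate 2, and was -0.13 without control replicate 3.

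*Opg* (ENSMUSG00000063727, minus strand of chromosome 15, 54250619 to 54278484), the decoy, was at 19.7, 44.0 and 28.5 CPM in Atrx-cKO and at 24.4, 28.8 and 23.7 CPM in control. Both the lowest and the highest library were Atrx-cKO, and the controls fell between them. The SD was 12.3 CPM around a mean of 30.7 CPM (n = 3) in Atrx-cKO and 2.76 CPM around 25.6 CPM (n = 3) in control, so the Atrx-cKO mice varied by 40.0% of their mean and the controls by 10.8%. A test of this difference in spread was not run. On the log2 scale the fold change was 0.26 (95% interval -0.35 to 0.87, adjusted p = 0.992). It turned to -0.098 without Atrx-cKO replicate 2 and was 0.50 without Atrx-cKO replicate 1 (unadjusted p = 0.0399, adjusted p = 0.999 in edgeR).

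The ratio of *Rankl* to *Opg* was also measured by the study in cultured marrow stromal cells. By RT-qPCR the study reported a lower ratio in Atrx-cKO cells, with *Opg* raised and a downward trend in *Rankl*. The whole-tibia RNA counts used here differ from that in both material and assay, so they do not repeat that measurement. In the tibia libraries the log2 ratio, with 0.5 CPM added to each gene, was -0.65, -2.44 and -1.43 in Atrx-cKO replicates 1, 2 and 3. In control replicates 1, 2 and 3 it was -1.15, -1.32 and -0.72. *Opg* thus exceeded *Rankl* in all 6 tibias, by 1.59 to 5.71 times in Atrx-cKO and by 1.67 to 2.57 times in control on the CPM scale, or by 1.26 to 4.53 and 1.33 to 2.04 times once each was divided by its exon length. The highest and the lowest ratio both came from Atrx-cKO mice. The group means were -1.51 ± 0.896 (SD, n = 3) and -1.06 ± 0.308 (SD, n = 3), and their difference of -0.44 gave p = 0.5 in an exact two-sided permutation test, which cannot go below 0.1 with 3 against 3. Without Atrx-cKO replicate 2 the difference was 0.023, and without Atrx-cKO replicate 1 it was -0.87. The pair of values for each mouse is drawn in the plot of *Rankl* against *Opg*.

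**Figure D2:**
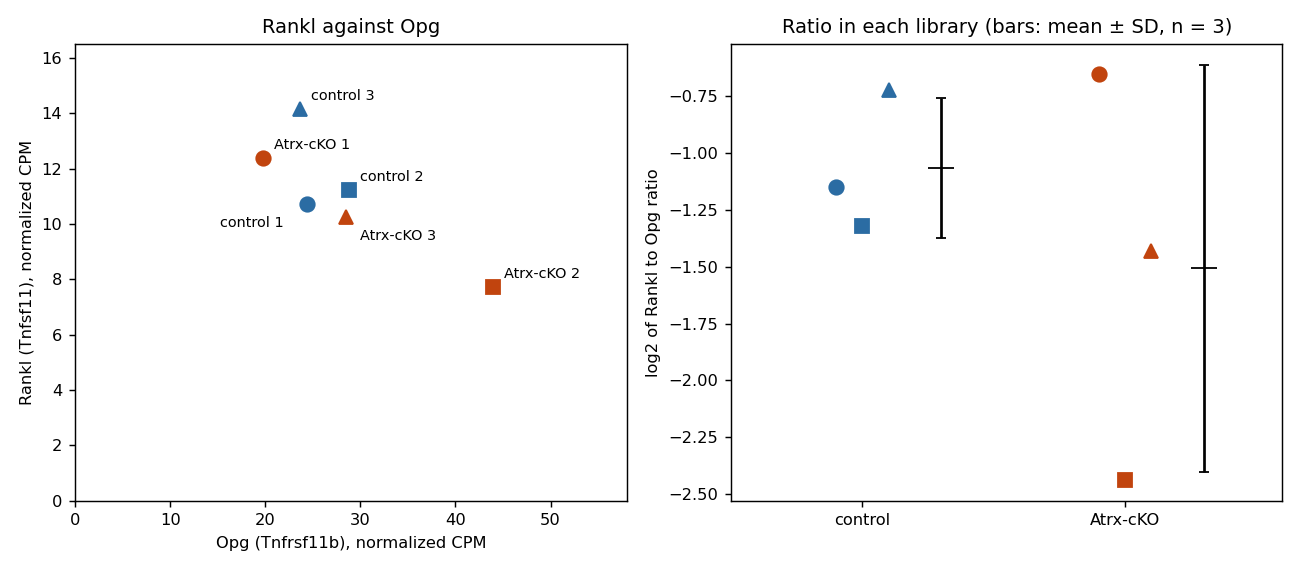
Left, *Rankl* (vertical axis) against *Opg* (horizontal axis) in normalized CPM, both axes from 0, for each of the 6 libraries. Right, log2 of the *Rankl* to *Opg* ratio by genotype with the mean ± SD (n = 3), where Atrx-cKO replicate 2 lies at -2.44 and the other 5 libraries between -1.43 and -0.65.

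*Csf1* (ENSMUSG00000014599, minus strand of chromosome 3, 107741048 to 107760469), which encodes M-CSF, was the steadiest of the ligands. It was at 147, 137 and 148 CPM in Atrx-cKO and at 145, 137 and 140 CPM in control. The groups were interleaved and no library departed from the rest. The log2 fold change was 0.032, with a 95% interval from -0.14 to 0.20 that covers levels from 0.907 to 1.15 times those of control. *Il34* (ENSMUSG00000031750), the other ligand of CSF1R, was at 8.82, 17.2 and 15.2 CPM in Atrx-cKO and at 16.0, 13.4 and 11.8 CPM in control. As with *Opg*, the lowest and the highest library were both Atrx-cKO, replicates 1 and 2. The mean was 13.7 ± 4.36 CPM (SD, n = 3) against 13.7 ± 2.13 CPM (SD, n = 3), and the 95% interval of the log2 fold change, -0.57 to 0.57, leaves room for a change of up to 1.48 times. Exons of other genes on the opposite strand share 1.12% and 3.83% of the *Il34* exon length.

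The promoters of *Rankl*, the ligand on which the comparison turns, and of *Csf1*, the ligand that varied least, are printed for comparison. Each run is the 250 bases before the RefSeq start site on GRCm38.p6, read 5′ to 3′ on the minus strand of the chromosome, at chr14:78308044-78308293 for *Rankl* and chr3:107760470-107760719 for *Csf1*.
Tnfsf11: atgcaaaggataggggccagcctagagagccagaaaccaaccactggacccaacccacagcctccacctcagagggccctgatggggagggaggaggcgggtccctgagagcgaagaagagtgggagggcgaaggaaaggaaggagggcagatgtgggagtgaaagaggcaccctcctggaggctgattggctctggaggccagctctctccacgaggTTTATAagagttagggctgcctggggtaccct
Csf1: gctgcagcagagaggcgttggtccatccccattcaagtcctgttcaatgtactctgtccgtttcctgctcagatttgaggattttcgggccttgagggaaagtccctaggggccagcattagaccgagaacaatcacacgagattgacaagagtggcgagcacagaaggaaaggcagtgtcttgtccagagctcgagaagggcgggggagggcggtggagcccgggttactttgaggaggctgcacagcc
Capitals mark TATAAA, found in *Rankl* on the opposite strand with its first printed base 32 bases before the start site. Windows of 300 bases, 250 before and 50 after the start, were searched on both strands in the 5 genes of the 10 whose promoters were read (*Rankl*, *Csf1*, *Rank*, *Traf6* and *Fcer1g*). The promoters of *Csf1r* and *Nfatc1* were not looked up, and those of *Opg*, *Il34* and *Tyrobp* were not in the promoter set used. The motifs were TATAAA, held by 13.6% of all 32851 promoters of that length, the PU.1 motif GAGGAAGT (3.20%), the RUNX motif TGNGGTT (14.9%), the AP-1 motif TGANTCA (7.81%) and the cyclic AMP response element TGACGTCA (1.79%). The TATAAA of *Rankl* was the only match, which describes these letters in these windows and nothing more.

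*Rank* (ENSMUSG00000026321, plus strand of chromosome 1, 105780718 to 105847981), the receptor for RANKL, was at 20.3, 14.8 and 18.4 CPM in Atrx-cKO and at 20.3, 18.5 and 24.3 CPM in control. Its lowest library was Atrx-cKO replicate 2 and its highest control replicate 3, the same mice as for *Rankl*. The log2 fold change was -0.24 (95% interval -0.59 to 0.11, adjusted p = 0.992), and it ran from -0.35 without Atrx-cKO replicate 1 to -0.13 without Atrx-cKO replicate 2. Over the 6 libraries *Rank* followed *Rankl* with r = 0.959 (exact permutation p = 0.00972) and Spearman's rho = 0.943 (exact permutation p = 0.0167). *Opg* ran against *Rankl* with r = -0.871 (exact permutation p = 0.0417) and rho = -0.771 (exact permutation p = 0.103). *Tyrobp* and *Fcer1g* ran together with r = 0.867 (exact permutation p = 0.025) and rho = 0.714 (exact permutation p = 0.136). These were the lowest p values for r among 45 pairs of the 10 genes, and after Benjamini-Hochberg adjustment over the 45 each r had an adjusted p of 0.375 and the rho values had adjusted p of 0.5, 0.578 and 0.612, so none passed. Without the 2 libraries farthest from the median, r over the remaining 4 was 0.554 for *Rankl* and *Rank* and -0.794 for *Rankl* and *Opg*, both without Atrx-cKO replicate 2 and control replicate 3, and 0.587 for *Tyrobp* and *Fcer1g*. The r of *Rank* with *Rankl* was thus lower without those 2 libraries. Leaving out the extreme libraries narrows the range and tends to lower r, so 4 libraries cannot show what the close run rests on. For a value within genotypes, 3 libraries per genotype are too few.

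*Csf1r* (ENSMUSG00000024621, plus strand of chromosome 18), the M-CSF receptor of monocytes, macrophages and osteoclast precursors, had the highest CPM of the 10. It was at 250.04, 235 and 267 CPM in Atrx-cKO and at 299, 295 and 289 CPM in control, and the highest Atrx-cKO library lay below the lowest control. The Atrx-cKO mean of 251 ± 15.9 CPM (SD, n = 3) was 85.1% of the control mean of 295 ± 5.04 CPM (SD, n = 3). On the log2 scale the fold change was -0.23 (95% interval -0.43 to -0.037, standard error 0.084), with an unadjusted p of 0.0256 and an adjusted p of 0.992 in edgeR's quasi-likelihood test. The fold ran from -0.28 to -0.20 in the 6 fits without a library and was -0.26 without control replicate 3, while the unadjusted p ran from 0.0265 to 0.104, the highest without Atrx-cKO replicate 2, and was 0.0673 without control replicate 2. Of the *Csf1r* exon length, 15.1% is shared with exons of *Hmgxb3* on the opposite strand, and the strand setting of the counting is not given in the sources used here.

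*Nfatc1* (ENSMUSG00000033016, minus strand of chromosome 18), the transcription factor on which the RANK and costimulatory signals converge, gave the lowest p of the 10. It was at 102, 99.6 and 98.6 CPM in Atrx-cKO and at 132, 112 and 120.0 CPM in control. The Atrx-cKO mean was 99.9 ± 1.54 CPM (SD, n = 3), and all 3 libraries were under the lowest control. The control mean was 121 ± 9.90 CPM (SD, n = 3), of which the Atrx-cKO mean was 82.5%. On the log2 scale the fold change was -0.28 (standard error 0.083, 95% interval -0.47 to -0.085), with an unadjusted p of 0.0107 in edgeR and 0.00951 in DESeq2 and adjusted p of 0.992 and 0.761. It ran from -0.33 to -0.21 in the 6 fits without a library, with unadjusted p from 0.00956 to 0.0371. Neither gene is therefore a call over the transcriptome, where 827 of 20636 genes had Atrx-cKO libraries wholly under the controls.

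The adaptors gave values near 0 or above it. *Traf6* (ENSMUSG00000027164, plus strand of chromosome 2, 101678429 to 101701669), the ubiquitin ligase that RANK recruits, was at 45.6, 42.1 and 43.7 CPM in Atrx-cKO and at 41.8, 43.6 and 46.9 CPM in control. Its log2 fold change of -0.0092 had the 95% interval -0.19 to 0.17, or 0.876 to 1.13 times control. *Tyrobp* (ENSMUSG00000030579, plus strand of chromosome 7, 30413760 to 30417585) was at 116, 103 and 102 CPM in Atrx-cKO and at 117, 114 and 88.4 CPM in control. Control replicate 3 was its lowest library, and the log2 fold change of 0.0050 became -0.13 without it and 0.073 without control replicate 1. *Fcer1g* (ENSMUSG00000058715, minus strand of chromosome 1, 171229572 to 171234365) was at 105, 79.3 and 80.6 CPM in Atrx-cKO and at 90.6, 78.8 and 60.3 CPM in control, a log2 fold change of 0.21 (95% interval -0.19 to 0.60). Its highest library was Atrx-cKO replicate 1 and its lowest control replicate 3, and in fits without a library the value ran from 0.047 without the latter to 0.34 without control replicate 1. The summed neutrophil markers had the same highest and lowest libraries, at 12719 CPM in Atrx-cKO replicate 1 and 7387 CPM in control replicate 3. Neutrophils also express *Tyrobp* and *Fcer1g*, and the part of these cells in the 2 genes was not tested. The plot of changes by gene gathers these intervals with the fits that left out a library.

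**Figure D3:**
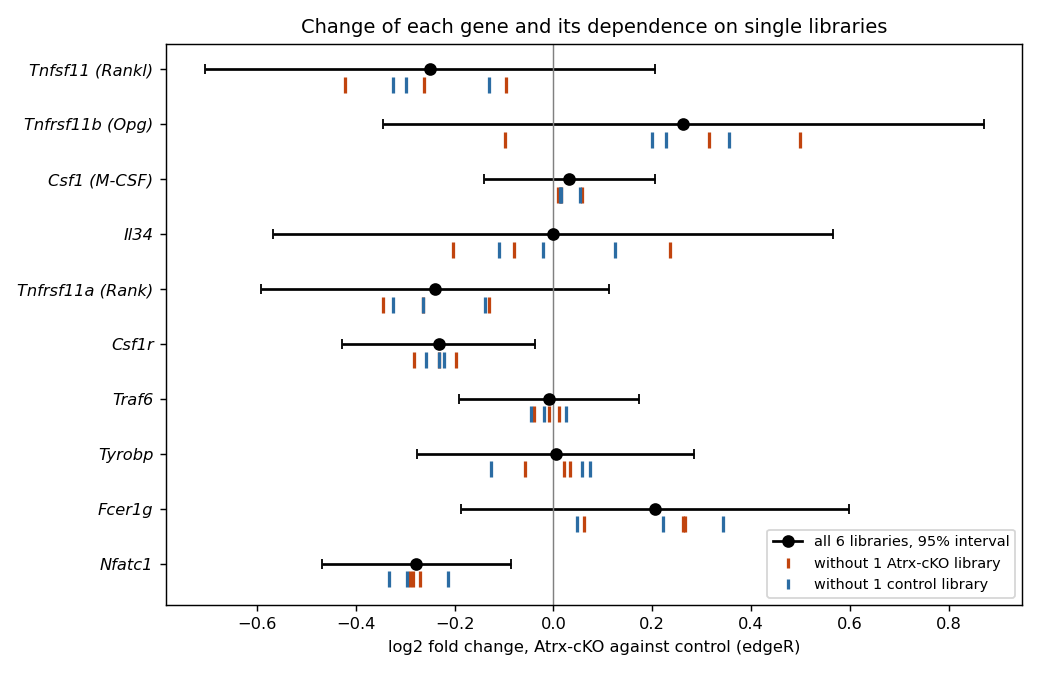
Log2 fold change of each of the 10 genes in Atrx-cKO against control (edgeR, horizontal axis) with its 95% interval (black), and the same value in 6 fits that each left out 1 library (red ticks, Atrx-cKO libraries; blue ticks, control libraries). Only the intervals of *Csf1r* and *Nfatc1* lie wholly below 0, and the ticks of *Opg*, *Il34*, *Traf6* and *Tyrobp* fall on both sides of 0.

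Levels of different genes were compared as CPM per kilobase of merged exons, a scale that is too low for a gene whose annotated exons are not all in use. In the controls *Tyrobp* was the most abundant, at 159.6 ± 23.5 (SD, n = 3), followed by *Fcer1g* at 87.6 ± 17.5 and *Csf1r* at 51.0 ± 0.872. *Csf1* at 26.7 ± 0.715 stood above its fellow ligands *Il34* at 7.004 ± 1.09 and *Rankl* at 5.38 ± 0.830. *Nfatc1* was at 16.2 ± 1.33, *Opg* at 9.09 ± 0.980, *Traf6* at 5.59 ± 0.333 and *Rank* at 3.52 ± 0.493 (SD, n = 3 for each). On this scale *Tyrobp* exceeded 99.1% of the genes tested and *Rank* 48.3%, by their mean over all 6 libraries. In the controls only *Traf6* and *Rankl* overlapped among neighbors in this order.

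By Pearson's r of log2(CPM + 0.5) over the 6 libraries, the genes most like *Rankl* among 16170 with a mean of at least 1 CPM were *Hadha* (0.996), *Gm15774* (0.987), *Gm10762* (0.977), *Nf2* (0.976) and *Tmem9b* (0.976). Those most like *Opg* were *Mertk* (0.988), *Gpr45* (0.984), *Tns2* (0.979), *N4bp2l2* (0.978) and *Gm42934* (0.977). Those most like *Csf1r* were *A230050P20Rik* (0.988), *Ik* (0.984), *Dctn4* (0.973), *Rint1* (0.973) and *Grin2a* (0.970). An r over 0.9 was reached by 99, 85 and 53 genes, and all values share the same 6 libraries and their depth. With 6 libraries and 16170 genes, many unrelated genes can reach such an r, and the number expected by chance was not computed. The lists therefore describe likeness over these libraries and do not show shared regulation. *Mertk*, a receptor tyrosine kinase with which macrophages clear dead cells, was at 88.3 CPM in Atrx-cKO replicate 2 and between 57.2 and 72.0 CPM in the other 5, so it shared the high library of *Opg*.

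The other genes of the pathway were read from 9 lists of 125 genes, of which 120 were tested. Over these, 0 passed an adjusted p of 0.05 in edgeR or in DESeq2. At an unadjusted p under 0.05, 1 gene had the higher mean in Atrx-cKO and 4 the lower, against 1.59% and 2.05% of all genes. The groups did not overlap for 5 genes on the higher side and 6 on the lower, or 4.17% and 5.0% of the 120, beside 4.30% and 4.01% of all genes. The median log2 fold change of the 120 was 0.0022.

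Of the 27 genes that carry the RANK signal to NF-κB and AP-1, the median log2 fold change was -0.0071 (-0.022 to 0.021 in fits without a library), and the lowest p were those of *Fosl2* and *Jun*, which encode subunits of AP-1. *Fosl2* was at 136, 131 and 136 CPM in Atrx-cKO and at 175, 157 and 170.1 CPM in control. Its groups did not overlap, and the log2 fold change was -0.32 (standard error 0.078, unadjusted p = 0.00376, adjusted p = 0.992 in edgeR). *Jun* was at 26.3, 32.0 and 27.3 CPM in Atrx-cKO and at 37.0, 33.0 and 51.9 CPM in control, again without overlap, at -0.51 (unadjusted p = 0.0199), and from -0.64 to -0.31 in fits without a library, the latter without control replicate 3. The other AP-1 subunits named here had both signs, with *Fos* at -0.27 (-0.44 to -0.13 in fits without a library) and *Fosl1* at 0.28 (0.16 to 0.39), both with groups that overlapped. *Sqstm1*, which encodes the scaffold p62, was at -0.18 with groups that overlapped, and ran from -0.25 without control replicate 2 to -0.048 without control replicate 3. The NF-κB kinase *Chuk*, chosen after its values were seen, was at 0.10 with all Atrx-cKO libraries above the controls, and at 0.045 without that library.

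Among the 10 genes of the costimulatory arm, 8 had log2 fold changes above 0 and the median was 0.075, which turned to -0.018 without control replicate 3 and was 0.21 without control replicate 1. The exceptions were the receptors *Oscar* and *Siglec15*, while *Trem2*, a receptor that signals through DAP12, was at 0.10 with groups that overlapped, and ran from -0.012 without control replicate 3 to 0.27 without control replicate 2. *Oscar*, a collagen receptor that signals through FcRγ, was at 11.6, 13.3 and 14.7 CPM in Atrx-cKO and at 16.9, 15.5 and 19.3 CPM in control. The groups did not overlap and the log2 fold change was -0.38 (unadjusted p = 0.0197, adjusted p = 0.992 in edgeR). *Siglec15*, which signals through DAP12, was at -0.44 with groups that overlapped, and ran from -0.79 without Atrx-cKO replicate 3 to -0.041 without control replicate 3. The kinase *Btk*, also used by B cells, was at 0.16, and was at 0.41 in the fit that left out control replicate 1 and -0.0016 in that which left out control replicate 3.

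Of 12 genes of calcium and calcineurin signaling, the step between costimulation and NFATc1, 9 were below 0 and the median was -0.067 (-0.10 to -0.029 in fits without a library). *Rcan1*, a calcineurin inhibitor that is itself an NFAT target, was at 29.1, 21.8 and 28.2 CPM in Atrx-cKO and at 29.2, 32.5 and 57.0 CPM in control, a log2 fold change of -0.59 (unadjusted p = 0.0508). Its groups lay side by side without overlap, and control replicate 3 stood well above the other 5 libraries. Without it the log2 fold change was -0.24 (unadjusted p = 0.134), and without control replicate 1 it was -0.76 (unadjusted p = 0.0144). *Nfatc2* was at -0.27 (-0.39 to -0.19 in fits without a library) and the calcium channel *Itpr2* at 0.14 (0.088 to 0.23), each with groups that overlapped.

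Among 9 transcription factors that promote or restrain osteoclast fate, the median was 0.072, which turned to -0.0048 without control replicate 3 and was 0.14 without control replicate 1. *Id2*, which restrains it, was at 53.2, 53.1 and 49.9 CPM in Atrx-cKO and at 45.7, 45.1 and 44.4 CPM in control, without overlap and with a log2 fold change of 0.21 (unadjusted p = 0.0174, adjusted p = 0.992 in edgeR). Its relative *Id1* was at 0.20 (unadjusted p = 0.108), also without overlap and with the Atrx-cKO libraries on the higher side, and at 0.079 without Atrx-cKO replicate 2. *Prdm1*, which represses such factors, was at -0.21 with groups that overlapped, and ran from -0.32 without Atrx-cKO replicate 3 to -0.13 without control replicate 3. The ID proteins act in many cells of marrow and bone, so the cell type behind these values is not given by bulk RNA.

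Of 10 genes of CSF1R signaling, 0 had an unadjusted p under 0.05, and the log2 fold changes ran from -0.084 for *Cblb* to 0.24 for *Dok2*, with *Dok1* at 0.11. Their median of 0.055 turned to -0.052 without control replicate 3 and was 0.16 without control replicate 1. In fits without a library *Dok2* ran from 0.098 to 0.51 and *Dok1* from 0.023 to 0.19. The related colony stimulating factor receptors *Csf3r*, *Csf2rb* and *Csf2ra* were at -0.24, 0.36 and 0.012, with 188 CPM of *Csf2rb* in Atrx-cKO replicate 1 against 64.1 to 105 CPM in the other 5 libraries. Without that library *Csf2rb* turned to -0.23, and it was 0.58 without Atrx-cKO replicate 3. *Csf3r* ran from -0.45 (unadjusted p = 0.0106) without control replicate 3 to -0.12 without control replicate 2, and *Csf2ra* from -0.12 to 0.095. The ligands *Csf2* and *Csf3* had at most 6 and 7 counts in any library and were not tested.

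Of 24 genes that feed into *Rankl* and *Opg* (hormone receptors, cytokines and their receptors), the median log2 fold change was 0.021 (-0.029 to 0.096 in fits without a library) and 1 had an unadjusted p under 0.05. *Il1b*, an inflammatory cytokine that raises *Rankl*, was at 8.19, 11.2 and 10.6 CPM in Atrx-cKO and at 24.3, 24.4 and 9.77 CPM in control, a log2 fold change of -0.96 (unadjusted p = 0.0203, adjusted p = 0.992 in edgeR). Control replicate 3 lay among the Atrx-cKO values, so the groups overlapped, and the log2 fold change was -1.30 without it and -0.78 without control replicate 2. *Il1a* was at 0.46 (0.31 to 0.74 in fits without a library) and the oncostatin M receptor *Osmr* at 0.20 (0.082 to 0.29), both with groups that overlapped, and *Il6st*, the receptor chain shared by the interleukin-6 family, was at 0.13 with Atrx-cKO libraries from 389 CPM upward and controls up to 369 CPM. That last gene was named after its values were seen.

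Among other secreted regulators of osteoclasts and alternative partners of RANKL and OPG, 13 of 16 genes were tested and 0 had an unadjusted p under 0.05. *Sema4d*, made by osteoclasts, was at -0.20 (-0.28 to -0.15 in fits without a library), the WNT5A receptor *Ror2* at -0.43 (-0.64 to -0.19) and the chemokine *Cxcl12* at 0.18 (0.085 to 0.27, the lowest without control replicate 3). The median of the 13 was -0.097 and turned to 0.043 without control replicate 1. *Ifnb1*, a feedback inhibitor of osteoclast formation, was at 0 counts in all 6 libraries, which allows at most 0.0630 normalized CPM in the shallowest. The plot of the pathway lists shows how narrowly most of these genes spread around 0.

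**Figure D4:**
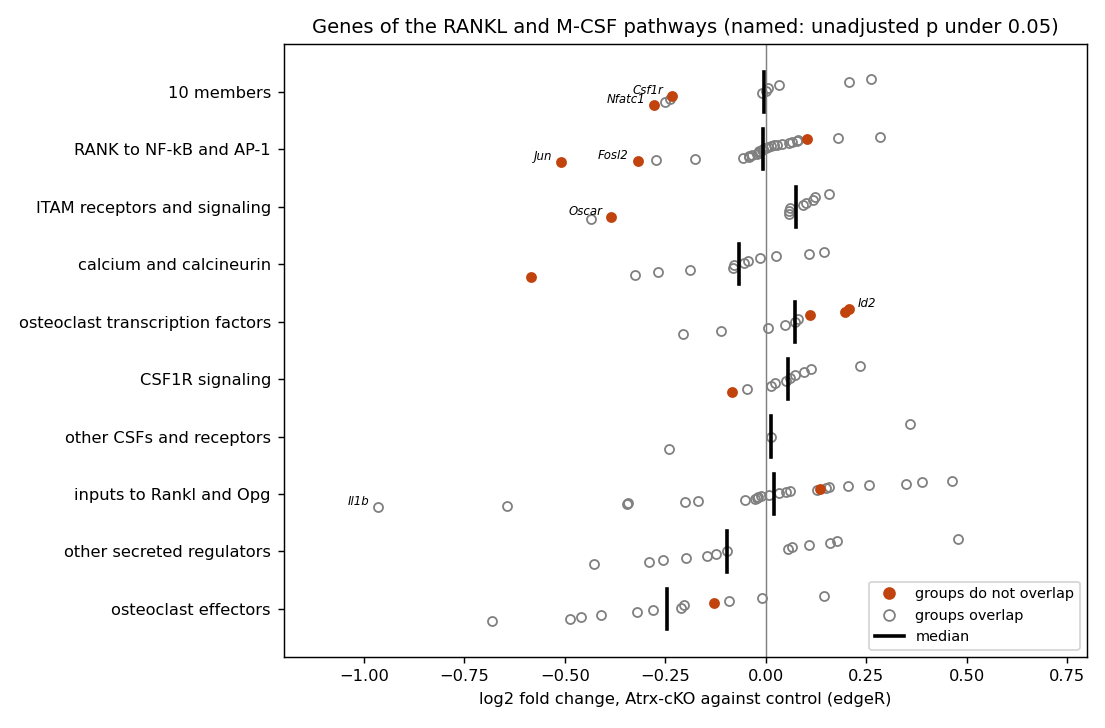
Log2 fold change in Atrx-cKO against control (edgeR, horizontal axis) of each tested gene in the 10 genes and 9 pathway lists, with filled points where the 3 Atrx-cKO and 3 control libraries do not overlap and a vertical bar at each list's median. Names mark unadjusted p under 0.05, and the medians run from -0.25 for the osteoclast effectors to 0.075 for the costimulatory genes.

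Downstream of NFATc1, the 12 osteoclast effector genes had a median log2 fold change of -0.25 (-0.38 to -0.18 in fits without a library), with 11 below 0 and 0 at an unadjusted p under 0.05. *Ctsk*, the collagen-degrading protease, was at 702, 612 and 868 CPM in Atrx-cKO and at 922, 719 and 1360 CPM in control, and *Clcn7* and *Dcstamp* were at -0.20 and -0.49, all 3 with groups that overlapped. Without control replicate 3 *Ctsk* was at -0.19 and *Dcstamp* at -0.30, and without Atrx-cKO replicate 3 *Dcstamp* was at -0.79. *Tcirg1*, a subunit of the proton pump, was the 1 effector without overlap, at 239, 251 and 248 CPM in Atrx-cKO and 287, 255 and 264 CPM in control (log2 fold change -0.13, unadjusted p = 0.161), and was at -0.079 without control replicate 1. The summed CPM of the 12 was 3677, 3237 and 4008 in Atrx-cKO and 4667, 3296 and 4962 in control, the most abundant gene being *Acp5*. Control replicate 2 thus lay among the Atrx-cKO libraries for the effector sum, whereas for *Csf1r* and *Nfatc1* it did not.

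The libraries also differed in their makeup. The osteoblast marker sum was 114806, 115276 and 118325 CPM in Atrx-cKO and 108816, 185200 and 166259 CPM in control, with all 8 markers at a log2 fold change below 0 and a median of -0.27 (-0.46 to -0.16 in fits without a library). The bone sialoprotein gene *Ibsp* alone of them had an unadjusted p under 0.05 (0.0221, log2 fold change -0.51) and groups that did not overlap. By the sum, control replicate 1 was the lowest of the 6. Its *Rankl* was at 10.7 CPM, against 11.2 and 14.2 CPM in control replicates 2 and 3, and its *Opg* at 24.4 CPM, against 28.8 and 23.7 CPM. A link of either gene to the osteoblast sum was not tested. Osteocyte markers, led by *Dmp1*, summed to 1107, 1259 and 1244 CPM in Atrx-cKO and 1369, 1255 and 1323 CPM in control. Their median log2 fold change was -0.17 (-0.33 to -0.095 in fits without a library), with 2 of 6 above 0 and 1 of 6 at an unadjusted p under 0.05 (*Pdpn*, -0.65). *Fgf23* was at 0.56, and ran from 0.20 without Atrx-cKO replicate 1 to 0.88 without Atrx-cKO replicate 2. *Mepe* was at -0.71, and ran from -0.96 without Atrx-cKO replicate 2 to -0.26 without control replicate 1. Stromal and adipogenic markers, led by *Cxcl12*, summed to 4084 ± 224 CPM (SD, n = 3) in Atrx-cKO and 3664 ± 404 CPM (SD, n = 3) in control, and 0 of the 6 had an unadjusted p under 0.05. Without control replicate 3 the control mean of this sum was 3855 CPM. The median log2 fold change of the 6 was 0.043, and it ran from -0.085 without Atrx-cKO replicate 3 to 0.20 without Atrx-cKO replicate 1. Chondrocyte markers, led by *Col2a1*, summed to 1165, 796 and 1049 CPM in Atrx-cKO and 1087, 1587 and 1597 CPM in control. That sum is mostly *Col2a1* (log2 fold change -0.56, unadjusted p = 0.0250), whereas 4 of the 6 markers were above 0 and their median of 0.26 ran from -0.63 to 1.36 in fits without a library.

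Blood-lineage markers bear on the receptors and adaptors. Macrophage markers, led by *Mrc1*, summed to 672, 686 and 685 CPM in Atrx-cKO and 693, 629 and 576 CPM in control, and monocyte markers, led by *Mpeg1*, to 933 ± 86.6 CPM (SD, n = 3) and 886 ± 234 CPM (SD, n = 3). In both lists, whose cells express *Csf1r*, the Atrx-cKO mean was the higher. Without control replicate 3 the control mean was 661 CPM for macrophage markers and 990 CPM for monocyte markers, against 681 and 933 CPM in Atrx-cKO, and the median log2 fold changes went from 0.14 to 0.040 and from 0.12 to -0.036. Of the 8 macrophage markers, 7 were above 0 and 1 below, and 1 had an unadjusted p under 0.05. Neutrophil markers, led by *Ngp*, summed to 10350 ± 2057 CPM (SD, n = 3) and 8951 ± 1606 CPM (SD, n = 3). T and natural killer cell markers, led by *Nkg7*, summed to 43.6 ± 4.60 and 41.8 ± 5.87 CPM, basophil and mast cell markers, led by *Prss34*, to 51.4 ± 3.07 and 55.0 ± 11.3 CPM, and erythroid markers, led by *Hbb-bs*, to 4250 ± 556 and 3810 ± 2034 CPM (Atrx-cKO and control, SD, n = 3 for each). Without control replicate 3 the control means of these 4 lists were 9733, 45.2, 57.4 and 4251 CPM. The T and natural killer cell mean was then higher in control, and the erythroid means were about equal. Muscle markers, led by *Myh4*, had a median log2 fold change of -1.51 that turned to 0.68 without control replicate 3. All markers had counts in at least 1 library. The part of these differences in the levels of the 10 genes was not tested, beyond the fits without each library, and the heat map of genes and marker sums sets them side by side.

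**Figure D5:**
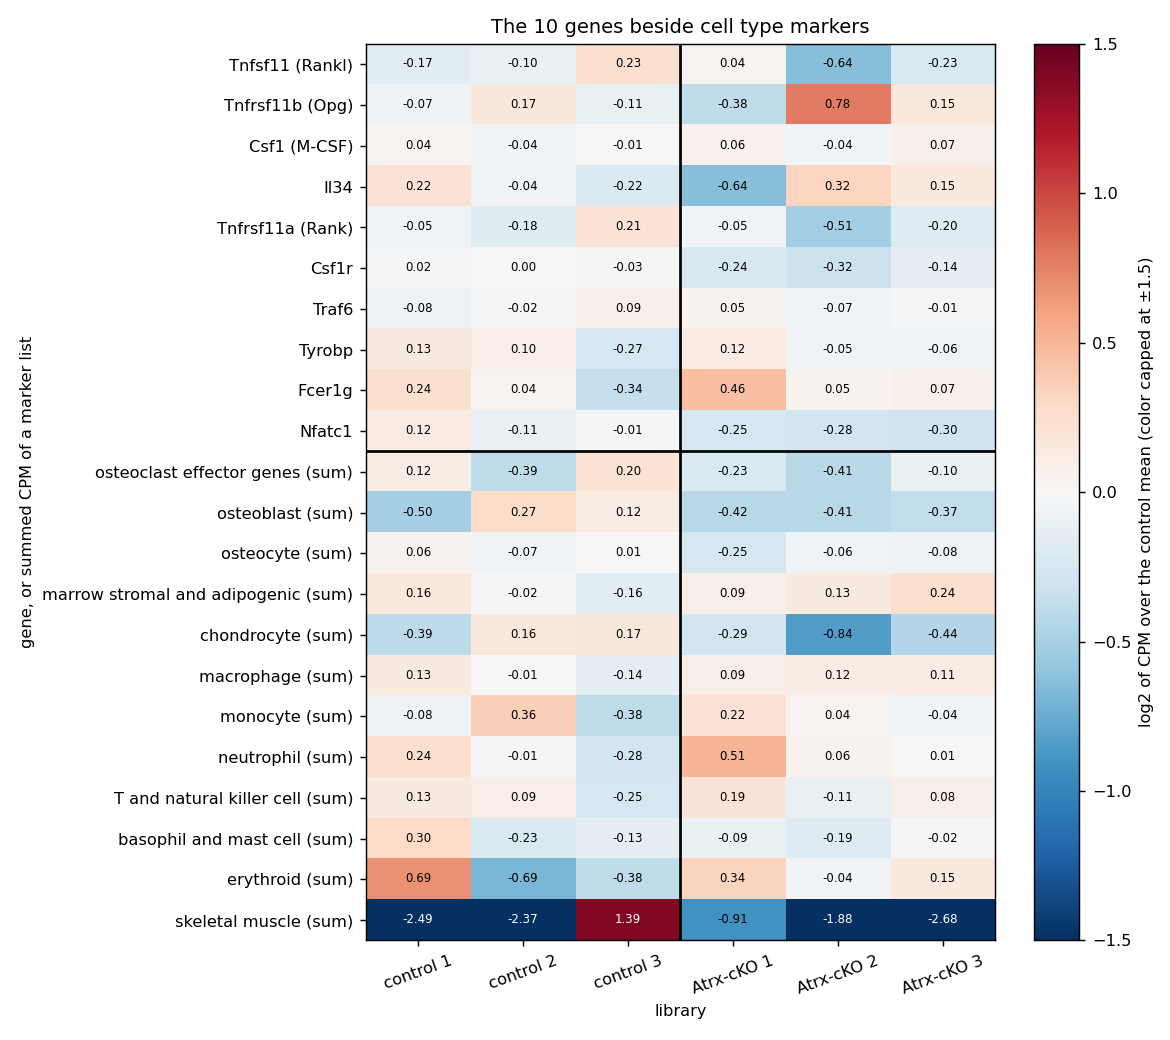
Log2 of normalized CPM over the control mean for the 10 genes (upper block) and for the summed CPM of the cell type markers given in the text (lower block) in 3 control and 3 Atrx-cKO libraries, with the value in each cell and the color capped at ±1.5. *Csf1r* and *Nfatc1* are below 0 in all 3 Atrx-cKO libraries, *Rankl* and *Opg* depart furthest in Atrx-cKO replicate 2, and the muscle sum stands out in control replicate 3.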

How the data were processed

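GENEWIZ made and sequenced the libraries as read pairs. The authors deposited raw counts of reads per Ensembl gene, 1 table per library, followed by summary lines laid out as by htseq-count. The submitters' processing notes name GRCm38 and DESeq2. The aligner and annotation release are not given in the sources used here. Reads on no feature made up 51.6% to 52.4% of the counts, and these and the other summary lines entered neither library sizes nor tests. Sample titles gave the genotype and replicate of all 6 libraries. GENCODE M21 named 55141 of 55401 identifiers. Promoter sequences were those of RefSeq on GRCm38.p6.

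Counts were tested with edgeR 4.0.16 in R 4.3.3 (TMM, filterByExpr, glmQLFit and glmQLFTest, genotype alone), with Benjamini-Hochberg adjustment over 20636 genes. Standard errors were taken as the log2 fold change over the square root of F, and 95% intervals from these and edgeR's total (prior plus residual) degrees of freedom. DESeq2 1.42.0 was the alternative test. In tests on simulated counts for 20636 genes with 200 changed, edgeR recovered 97 of 100 changed by 2-fold and 100 of 100 changed by 4-fold, with 9 false calls. The simulation gave all genes the same dispersion, held no outlying library and changed only genes above a minimum level. It checks the working of the code and does not give the power to find such changes in these tibias. Replicate libraries were not copies of each other, with a chi-square of 15.8 to 137 per degree of freedom between pairs. The sources do not say whether same-genotype libraries came from separate litters, and p values measure the spread between these libraries.

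The 10 genes and the 24 gene lists were chosen with earlier results of these data known. Genes named were the 10, the 3 with the lowest p in each pathway list, the most abundant gene of each marker list and the 5 genes most like *Rankl*, *Opg* and *Csf1r*. Exceptions are stated where they occur, and *Fos*, *Fosl1*, *Trem2*, *Tcirg1*, *Ibsp*, *Pdpn*, *Fgf23* and *Mepe* were also named after their values were seen. The values of some listed genes, and the sum of B cell markers, are not reported here.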

Additional observations from a re-analysis of the deposited data

How the results depend on the processing

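None of the 10 genes was called under any of the 13 alternatives, with a lowest adjusted p of 0.425 (*Nfatc1*). The count of genes called over the transcriptome was 3 and moved to 10 without a filter, 1 with at least 10 counts in every library, 37 with DESeq2's Wald test and 0 with the replicate block. It ran from 0 to 5 in fits without 1 library, with 0 when Atrx-cKO replicate 1 or 2 or control replicate 2 was left out, and 5 without control replicate 3. The *Rankl* to *Opg* log2 ratio difference ran from -0.87 to 0.023 in those fits and from -0.45 to -0.41 under the other alternatives. Leaving out a library turned the sign of 4 genes, whose log2 fold changes ran from -0.098 to 0.50 for *Opg*, -0.20 to 0.24 for *Il34*, -0.046 to 0.025 for *Traf6* and -0.13 to 0.073 for *Tyrobp*. *Il34* was also at 0.0029 with upper quartile scaling and 0.00019 with at least 10 counts in every library. The other 121 of 130 values kept their sign and side of the threshold. Some alternatives use fewer genes or libraries, and for the rest the cause was not tested.

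The labels give no meaning to shared replicate numbers. Deviations from the group mean correlated at -0.0032, 0.11 and -0.10 between libraries of the same number, and not every library correlated best with its own number. With the replicate block 0 genes were called and the ratio difference was -0.44 (exact permutation p = 0.5, smallest possible 0.25). Of 312 list medians under the alternatives, 17 moved by more than the spread between libraries, and 16 of 24 lists changed sign at least once. Depth was not varied, and the 10 genes had at least 440 counts in every library.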
